A study of Mus musculus with 25 samples.

Results

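The 45 genes described here were chosen from a list of names, with earlier results of these data known. Of these, 13 act in S phase, when DNA is copied, and 32 act in mitosis, when the copied chromosomes are separated. Each gene was represented by the transcript cluster that carried its symbol alone, or by the cluster with the highest mean where there was more than 1. By this rule 42 genes were measured, 12 of S phase and 30 of mitosis, among 22180 genes of the whole table. Ccne2 and Ncapg were found only on clusters shared with another gene (Ints8 and Lcorl), and Ccnb1 is unnamed here, so these 3 have no values. The tissue was the gonadal fat pad of male mice, and each mouse gave 1 Affymetrix Mouse Gene 2.0 ST array.

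All 25 mice were heterozygous apoE3L.CETP animals, which carry the ApoE3Leiden and human CETP transgenes and so have a lipoprotein metabolism closer to the human one. No mice without the transgenes were measured. From the age of 12 weeks they ate either food rich in fat (HFD, high-fat diet) or its low-fat counterpart (LFD), and the tissue was taken after 4, 8 or 12 weeks. The HFD held 60% fat and 20% carbohydrate with added cholesterol, and the LFD held 10% fat and 70% carbohydrate. HFD was measured in 3 arrays after 4 weeks and in 4 arrays at each later time. LFD was measured in 4 arrays each time, and 2 arrays came from mice on chow at the age of 12 weeks. The labels give the age at sampling as 16 weeks after 4 weeks of diet, 20 weeks after 8 weeks and 34 weeks after 12 weeks. The last age does not match 12 weeks of diet begun at 12 weeks, so groups are named by time on diet.

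Cells that prepare to divide load the MCM helicase onto DNA, unwind and copy the DNA during S phase with the help of the sliding clamp PCNA, and need a supply of deoxynucleotides. Cyclin-dependent kinases then drive entry into mitosis, where motor proteins build the spindle, kinetochores attach chromosomes to it, checkpoint kinases delay separation until all are attached, and a contractile ring divides the cell. In adipose tissue mature adipocytes are regarded as not dividing, and the dividing cells known from obese mice are mainly macrophages, adipocyte progenitors, endothelial cells and lymphocytes. In whole tissue, more dividing cells and more RNA per dividing cell cannot be told apart.

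Values are the deposited log2 signals. A difference is HFD minus LFD on the log2 scale ± the standard error from limma, which was fitted to all 25 arrays. A gene was called where its Benjamini-Hochberg adjusted p over all genes was under 0.05. Array medians lay between 5.04 and 5.36. Adipocyte markers were present throughout: the mean of 11 such genes lay between 11.19 and 11.70 in every HFD and LFD array and at 10.38 and 11.42 in the 2 chow arrays. It was lower under HFD than under LFD without overlap at 8 weeks (11.35 ± 0.06 and 11.65 ± 0.07) and at 12 weeks (11.27 ± 0.08 and 11.46 ± 0.10; SD, n = 4 each), the times at which cell cycle genes were called. Transcripts of other organs were also present. The mean of 24 hepatocyte genes was 9.11 to 10.78 in 11 of the 16 arrays at 8 and 12 weeks (3 HFD and 2 LFD arrays at 8 weeks, 3 HFD and 3 LFD arrays at 12 weeks) and at most 7.52 in the other 14 arrays. Genes of the epididymis averaged 9.87 in HFD 4-week array 1 and 5.18 in LFD 4-week array 1, while chow array 1 stood at 11.75 and no other array exceeded 3.97.

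The expression of nearly all 42 cell cycle genes was on average higher in HFD than in LFD mice at each time, with the most calls and the widest median difference at 12 weeks. The difference lay above 0 for 40 of 42 genes at 4 weeks, for 41 at 8 weeks and for all 42 at 12 weeks, where 49.7%, 48.1% and 48% of all genes did so at these times. The median difference of the 42 genes was 0.25, 0.36 and 0.55 at the 3 times, against medians of all genes between -0.01 and 0. The difference of a gene was larger at 12 weeks than at 4 weeks for 35 of the 42 genes and larger at 12 weeks than at 8 weeks for 36. By limma, 0 genes were called at 4 weeks, where 0.189% of all genes were called higher and 0.0225% lower. At 8 weeks 4 were called higher and 0 lower (1.17% and 1.24% of all genes), and at 12 weeks 19 higher and 0 lower (3.13% and 1.33% of all genes). At an unadjusted p under 0.05, 10, 19 and 38 of the 42 genes were higher under HFD at 4, 8 and 12 weeks, where 4.78%, 6.19% and 9.09% of all genes were. With the 3 times averaged, limma called 29 of the 42 genes higher and 0 lower, against 6.03% of all genes higher and 4.44% lower.

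**Figure D1:**
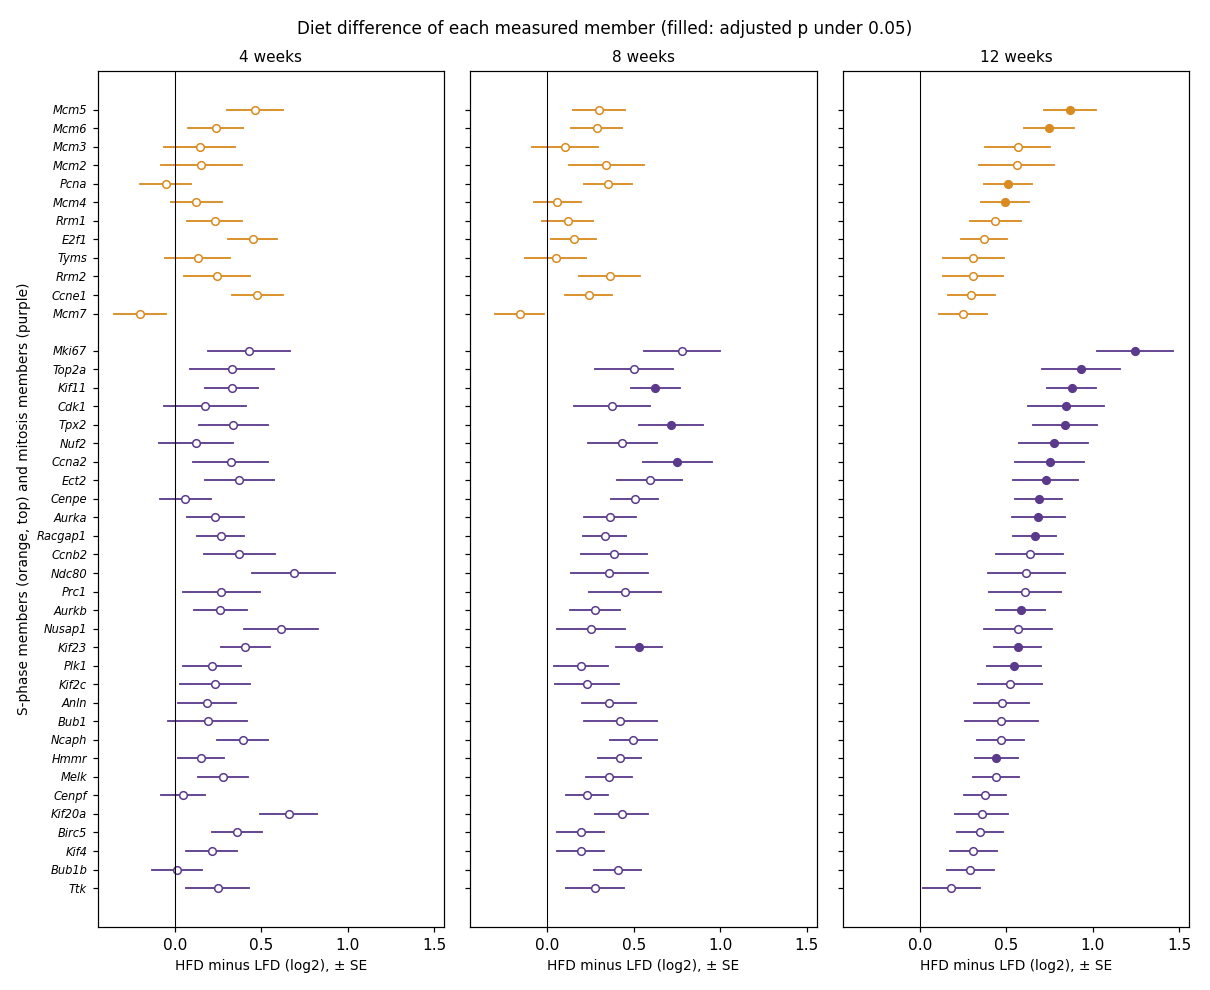
Difference between HFD and LFD (log2) for each of the 42 measured genes at 4, 8 and 12 weeks, with bars of ± 1 SE, S-phase genes in orange, mitotic genes in purple and filled points for calls at an adjusted p under 0.05. All 42 points lie above 0 at 12 weeks, and 19 of them are called.

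The promoters of both classes were searched for 3 short motifs, whose frequencies are given as a description without a test. The RefSeq promoter table (GRCm38.p6, 250 bases before to 50 bases after the start) held 28 of the 32 mitotic and 11 of the 13 S-phase genes. Both strands were searched for the CHR, the cell cycle homology region (TTTGAA or TTCGAA), for the CCAAT box (CCAAT) and for E2F motifs (TTGGCGC, the variant TTCCCGC, the variant TTCGCGC or the variant TTGCCGC). E2F matches can overlap each other, and one that ends in CCAA overlaps a CCAAT box where a T follows. As background, the CHR is known as the site of the DREAM and MuvB complexes in late cell cycle genes, often with CCAAT boxes bound by NF-Y, and E2F motifs are known from early cell cycle genes. A CHR was present in 21 of 28 mitotic windows (75%), in 2 of 11 S-phase windows (18.2%) and in 19.4% of all 27025 windows. In 19 mitotic genes a CHR began within 50 bases of the start. This position was counted in mitotic genes only, so there is no share of S-phase or of all windows to set beside it. E2F motifs were present in 7 of 28 mitotic windows (25%), 6 of 11 S-phase windows (54.5%) and 9.69% of all windows. CCAAT boxes were as frequent in both classes, at 71.4% and 72.7%, against 37.9% of all windows.

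The 4 windows shown belong to the mitotic and S-phase genes with the smallest p at 12 weeks whose window holds the motifs of their class. Capitals mark CHR and CCAAT box matches in Kif11 and Mki67 and E2F matches in Mcm5 and Mcm6. The window of Kif11 is chr19:37376132-37376431 on the plus strand, that of Mki67 chr7:135716330-135716629 on the minus strand, that of Mcm5 chr8:75109259-75109558 on the plus strand and that of Mcm6 chr1:128359656-128359955 on the minus strand. Each is written 5′ to 3′ along the gene.
Kif11: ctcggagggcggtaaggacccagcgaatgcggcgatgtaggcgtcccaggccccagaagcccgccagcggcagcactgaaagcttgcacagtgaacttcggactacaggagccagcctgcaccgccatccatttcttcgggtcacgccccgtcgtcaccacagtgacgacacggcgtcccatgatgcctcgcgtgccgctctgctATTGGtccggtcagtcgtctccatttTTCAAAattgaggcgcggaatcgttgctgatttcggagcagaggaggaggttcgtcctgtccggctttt
Mki67: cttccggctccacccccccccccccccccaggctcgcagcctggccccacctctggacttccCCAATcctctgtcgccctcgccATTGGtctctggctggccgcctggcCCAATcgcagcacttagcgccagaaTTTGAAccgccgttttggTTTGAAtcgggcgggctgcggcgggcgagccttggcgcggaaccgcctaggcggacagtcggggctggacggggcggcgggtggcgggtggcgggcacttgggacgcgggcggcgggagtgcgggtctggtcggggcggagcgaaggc
Mcm5: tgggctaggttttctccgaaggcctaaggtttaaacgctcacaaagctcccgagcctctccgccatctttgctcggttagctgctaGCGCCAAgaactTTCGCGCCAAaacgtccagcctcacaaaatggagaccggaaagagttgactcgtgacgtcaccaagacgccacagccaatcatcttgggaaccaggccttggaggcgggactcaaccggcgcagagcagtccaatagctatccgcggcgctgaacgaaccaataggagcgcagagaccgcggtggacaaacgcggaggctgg
Mcm6: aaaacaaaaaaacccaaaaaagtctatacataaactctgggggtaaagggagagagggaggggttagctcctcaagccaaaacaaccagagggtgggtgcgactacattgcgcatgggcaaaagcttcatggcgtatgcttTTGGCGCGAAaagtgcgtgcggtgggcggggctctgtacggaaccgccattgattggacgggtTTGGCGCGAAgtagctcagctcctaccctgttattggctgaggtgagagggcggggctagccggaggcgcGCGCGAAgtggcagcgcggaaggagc
The CHR of Kif11 lies at bases -19 to -14 from the start and its CCAAT box at -45 to -41, both read on the strand opposite to the one printed. Mki67 holds 2 CHR matches, at -116 to -111 and -98 to -93, downstream of 3 CCAAT boxes, and 1 E2F match that is not in capitals. Mcm5 holds 3 E2F matches between -164 and -143, and Mcm6 holds 5, in overlapping pairs from -109 and from -46 and singly at 25 to 31, while their 3 and 2 CCAAT boxes are not in capitals. Called genes at 12 weeks were found with and without these motifs: 10 of 20 measured mitotic genes with a CHR and 2 of 6 without one, and 2 of 6 measured S-phase genes with an E2F motif and 1 of 5 without.

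At 12 weeks, where 3.13% of all genes were called higher, 15 of 30 mitotic genes rose under HFD. They included 2 of 3 chromosome proteins, 4 of 9 spindle proteins and motors, 2 of 4 kinetochore genes, 3 of 8 mitotic kinases and checkpoint genes, 2 of 3 cytokinesis genes and 2 of the 3 genes for mitotic cyclins and their kinase. In 15 of the 30 genes every HFD array lay above every LFD array, as was the case for 7.52% of all genes, and in 0 the order was reversed (5.08% of all genes). Among the 19 called genes of both classes, 13 had groups that did not overlap. A rise of at least 1.5-fold was measured for 14 mitotic genes.

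Mki67, which encodes the proliferation marker that coats mitotic chromosomes, read 8.25, 7.83, 8.41 and 8.29 in the HFD arrays at 12 weeks and 7.64, 7.19, 6.66 and 6.31 in the LFD arrays. The groups did not overlap, and the LFD arrays were spread more widely than the HFD arrays. The difference was 1.25 ± 0.22 (adjusted p = 0.00202). Top2a, encoding the topoisomerase that untangles sister DNA molecules, read 6.84, 6.25, 6.64 and 6.34 under HFD and 5.99, 5.79, 5.6 and 4.96 under LFD. Again no LFD array reached the HFD range, and LFD array 4 was the lowest. The difference of Top2a was 0.93 ± 0.23 (adjusted p = 0.0179). Its call was lost when HFD array 1 (0.83, adjusted p = 0.0706), HFD array 3 (0.89, adjusted p = 0.059) or LFD array 4 (0.72, adjusted p = 0.0785) was left out. Among the arrays with high hepatocyte transcripts alone the difference of Top2a was 0.90 (adjusted p = 0.0961).

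Kif11, whose promoter window is printed above with its CHR close to the start, encodes the motor that pushes the spindle poles apart. It read 6.39, 6.06, 6.53 and 6.44 in the HFD arrays at 12 weeks and 5.76, 5.6, 5.41 and 5.14 in the LFD arrays. No LFD array reached the HFD range, and the difference of 0.88 ± 0.14 had the smallest p of the 42 genes at this time (adjusted p = 0.00109). Tpx2, which encodes a protein that starts microtubule growth around chromosomes and activates Aurora A, read 6.71, 6.27, 6.83 and 6.89 under HFD and 5.88, 6.2, 5.67 and 5.59 under LFD. HFD array 2 and LFD array 2 came close to each other without overlap (difference 0.84 ± 0.18, adjusted p = 0.00888). Kif23, a motor of the central spindle needed for cytokinesis, read 6.04, 5.44, 5.61 and 5.95 under HFD and 5.32, 5.27, 5.19 and 5 under LFD. The groups stood apart by a small margin, and the difference was 0.56 ± 0.13 (adjusted p = 0.0149). The call of Kif23 was lost without HFD array 1 (0.47, adjusted p = 0.0661), HFD array 4 (0.50, adjusted p = 0.0576) or LFD array 4 (0.50, adjusted p = 0.0591).

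Cenpe, a kinetochore motor that moves chromosomes to the spindle equator, read 5.61, 5.75, 5.61 and 5.73 under HFD and 5.28, 4.99, 4.97 and 4.71 under LFD at 12 weeks. The 4 HFD arrays lay close together above all LFD arrays, and the difference was 0.69 ± 0.14 (adjusted p = 0.00417). Aurka, which encodes the spindle pole kinase Aurora A, read 6.39, 6.13, 6.13 and 5.85 under HFD and 5.42, 5.36, 5.58 and 5.4 under LFD. Here the HFD arrays spread more than the LFD arrays, without overlap (0.69 ± 0.15, adjusted p = 0.0101). Racgap1, part of the complex that places the contractile ring, read 6.34, 6.45, 6.76 and 6.76 under HFD and 5.92, 5.99, 5.85 and 5.89 under LFD. Its LFD arrays differed little among themselves, and the difference was 0.67 ± 0.12 (adjusted p = 0.00264).

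Other called mitotic genes at 12 weeks were Cdk1, the kinase of mitotic entry (0.84 ± 0.22), Nuf2, a microtubule-binding subunit of the outer kinetochore (0.78 ± 0.20), Ccna2, encoding cyclin A2, which acts in S phase as well as before mitosis (0.75 ± 0.20), and Ect2, the exchange factor that activates RhoA for cytokinesis (0.73 ± 0.19). In each of these 4 the highest LFD array overlapped the HFD range. Aurkb, the Aurora kinase of the chromosomal passenger complex (0.58 ± 0.14), Plk1, encoding Polo-like kinase (0.54 ± 0.16), and Hmmr, a spindle assembly factor (0.44 ± 0.12), were called too.

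The mitotic genes with the least evidence of a difference at 12 weeks belonged to the spindle checkpoint. Ttk, which encodes the kinase that starts checkpoint signalling, read 5.27, 5.3, 5.3 and 5.23 under HFD and 5.45, 5.04, 5.01 and 4.87 under LFD. LFD array 1 was above all HFD arrays and the other LFD arrays below them, with a difference of 0.18 ± 0.17 (adjusted p = 0.682). Bub1b, encoding the checkpoint protein BubR1, read 5.61, 5.66, 5.89 and 5.46 under HFD and 5.51, 5.47, 5.33 and 5.14 under LFD. The groups overlapped, and the difference was 0.29 ± 0.13 (adjusted p = 0.283). Bub1, a checkpoint kinase of the kinetochore, differed by 0.47 ± 0.21 (adjusted p = 0.266) without overlap. The signal of Bub1 was low, with a mean over all arrays of 4.13 against a median of all clusters of 5.14, and Ttk stood near that median at 5.13.

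The 12 other mitotic genes that were not called at 12 weeks had differences between 0.31 and 0.64. Nearest to the threshold were Ncaph, a condensin subunit (0.47 ± 0.14, adjusted p = 0.0546), Ccnb2, encoding cyclin B2 (0.64 ± 0.19, adjusted p = 0.0629), and Melk, a kinase expressed in dividing cells (0.44 ± 0.13, adjusted p = 0.0649). Ncaph read 6.1, 5.84, 5.79 and 6.09 under HFD and 5.44, 5.59, 5.57 and 5.35 under LFD, so that its groups did not overlap. Among kinetochore genes, Ndc80, the partner of Nuf2, differed by 0.61 ± 0.22 and the large kinetochore protein gene Cenpf by 0.38 ± 0.12. Of the spindle genes, Prc1, a microtubule bundler of the central spindle (0.61 ± 0.21), Nusap1, a microtubule stabiliser (0.57 ± 0.20), Kif2c, a microtubule depolymerase (0.52 ± 0.19), Kif20a (0.36 ± 0.15) and the chromosome motor gene Kif4 (0.31 ± 0.13) were not called. Neither were Anln, encoding the actin-binding ring protein anillin (0.47 ± 0.16), and Birc5, encoding survivin of the chromosomal passenger complex (0.35 ± 0.13).

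The average over the 3 times called 24 of 30 mitotic and 5 of 12 S-phase genes higher, where 6.03% of all genes were called higher and 4.44% lower. Of these called genes, 18 were also called at 12 weeks. The smallest p was again that of Kif11 (0.61, adjusted p = 5.5e-05), followed by Kif23 (0.50, adjusted p = 0.000185) and Mki67 (0.82, adjusted p = 0.000218). Ncaph (0.45 ± 0.08) and Kif20a (0.48 ± 0.09), not called at any single time, were called on average. The mitotic genes not called on average were Ttk, Bub1b, Bub1, Cenpf, Kif2c and Kif4, and among S-phase genes Mcm2, Mcm3, Mcm4, Mcm7, Rrm1, Rrm2 and Tyms. Mcm2 and Mcm3, also helicase subunits, differed by 0.56 ± 0.22 (adjusted p = 0.173) and 0.56 ± 0.19 (adjusted p = 0.101) at 12 weeks.

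**Figure D2:**
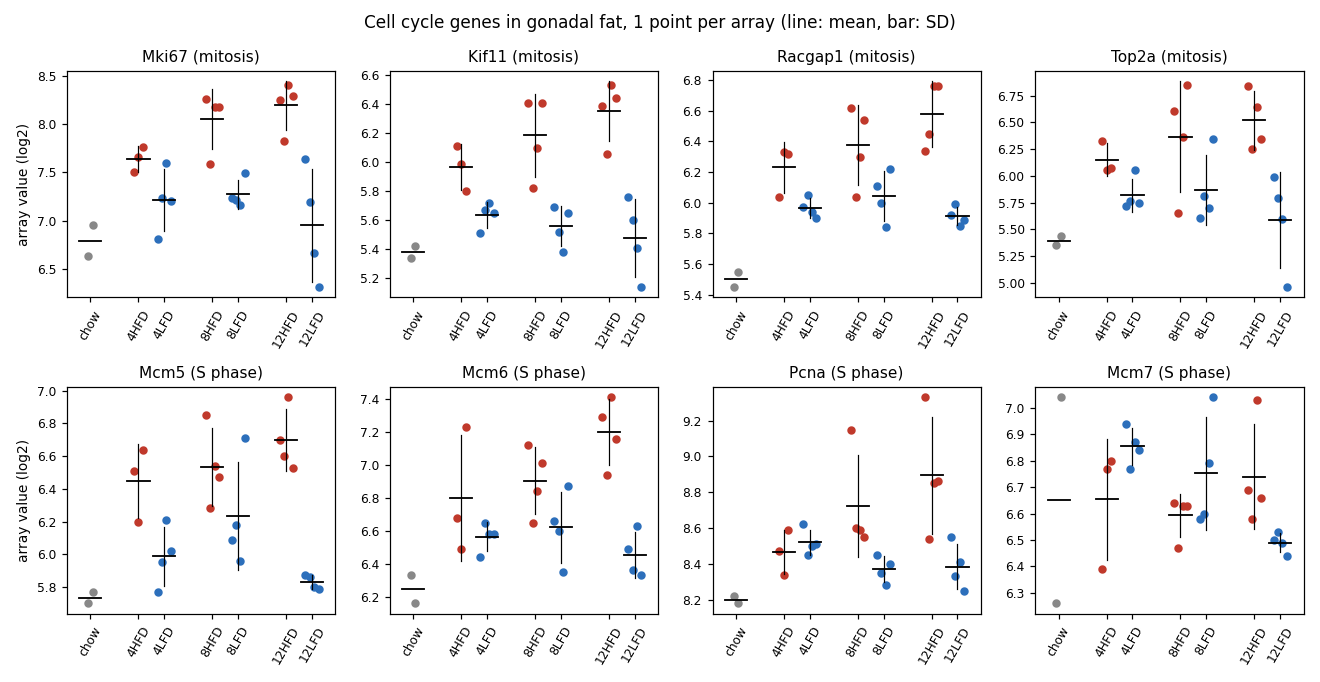
Log2 signal of 8 genes in each array (points) by group, with a line at the group mean and a bar of ± 1 SD for groups of more than 2 arrays. For Mki67, Kif11, Racgap1, Top2a, Mcm5 and Mcm6 the 4 HFD arrays at 12 weeks lie above the 4 LFD arrays, while for Pcna 1 HFD array lies within the LFD range. For Mcm7 the order of the diet means differs between 4 and 12 weeks, and its difference was not called at either time.

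In S phase, 4 of 12 genes rose under HFD at 12 weeks (3.13% of all genes), namely 3 of the 6 helicase subunits and Pcna. The difference was above 0 for all 12 (48% of all genes). In 5 of them every HFD array was above every LFD array, as in 7.52% of all genes, and in 0 the order was reversed (5.08% of all genes). Mcm5, a subunit of the MCM helicase whose window holds overlapping E2F matches, read 6.7, 6.6, 6.96 and 6.53 under HFD and 5.87, 5.86, 5.8 and 5.79 under LFD. The LFD arrays were nearly equal, far below the lowest HFD array, and the difference was 0.87 ± 0.15 (adjusted p = 0.00165). Mcm6, another helicase subunit, read 7.29, 6.94, 7.41 and 7.16 under HFD and 6.49, 6.36, 6.63 and 6.33 under LFD. The groups were separate (0.75 ± 0.15, adjusted p = 0.00384). Both calls were kept whichever array was left out.

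The other S-phase calls were lost when single arrays were left out. Mcm4, also of the helicase, read 7.28, 7.33, 7.43 and 7.32 under HFD and 6.81, 6.92, 7.04 and 6.62 under LFD. No LFD array reached the HFD arrays, and the difference was 0.49 ± 0.14 (adjusted p = 0.0391). The call of Mcm4 was lost when any of the 8 arrays other than LFD array 3 was left out, with differences of 0.42 without LFD array 4 and 0.46 to 0.52 without HFD arrays 1, 2, 3 or 4 or LFD arrays 1 or 2. Pcna, the sliding clamp that also serves DNA repair, read 9.33, 8.54, 8.85 and 8.86 under HFD and 8.55, 8.33, 8.41 and 8.25 under LFD. HFD array 2 fell within the LFD range, and HFD array 1 was the highest (0.51 ± 0.14, adjusted p = 0.0351). Without HFD array 1 the difference of Pcna was 0.37 (adjusted p = 0.142), and the call was also lost without HFD arrays 3 or 4 or LFD arrays 2, 3 or 4, at 0.46 to 0.53. With covariates for hepatocyte and epididymis transcripts, neither Mcm4 (0.45, adjusted p = 0.08) nor Pcna (0.49, adjusted p = 0.0625) was called, and among the arrays with high hepatocyte transcripts Pcna differed by 0.53 (adjusted p = 0.078). Mcm4 was also not called with the replicate number as a block (0.49, adjusted p = 0.0519).

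The genes for deoxynucleotide supply were not called. Rrm2, the regulated subunit of ribonucleotide reductase, read 5.73, 5.43, 5.43 and 6.19 under HFD at 12 weeks and 5.81, 5.59, 5.16 and 4.99 under LFD. The groups overlapped widely (0.31 ± 0.18, adjusted p = 0.421). Rrm1, the large subunit of the same enzyme, differed by 0.43 ± 0.15 (adjusted p = 0.106), and Tyms, encoding thymidylate synthase, by 0.31 ± 0.17 (adjusted p = 0.411). Mcm7, a further helicase subunit, read 6.69, 6.58, 7.03 and 6.66 under HFD and 6.5, 6.53, 6.49 and 6.44 under LFD, without overlap but with a difference of only 0.25 ± 0.14 (adjusted p = 0.414). At 4 and 8 weeks Mcm7 differed by -0.20 ± 0.15 and -0.16 ± 0.14 with overlapping groups, and it was the only gene of the 42 below 0 at 8 weeks. The 4-week difference of Mcm7 was -0.04 without HFD array 1, LFD array 1 and chow array 1, which held epididymis transcripts. Of the G1/S regulators, E2f1, which encodes a transcription factor of S-phase genes, differed by 0.37 ± 0.13 at 12 weeks (adjusted p = 0.13). Ccne1, encoding cyclin E1, which drives entry into S phase, differed by 0.30 ± 0.14 (adjusted p = 0.278).

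S-phase and mitotic genes were then set side by side through the mean of each class in each array. For the 12 S-phase genes this mean was 7.06, 6.82, 7.15 and 6.99 in the HFD arrays at 12 weeks and 6.53, 6.57, 6.57 and 6.44 in the LFD arrays. The groups did not overlap, with 7.00 ± 0.14 under HFD and 6.53 ± 0.06 under LFD (SD, n = 4 each). For the 30 mitotic genes the mean was 6.03, 5.74, 5.97 and 6.00 under HFD and 5.53, 5.50, 5.23 and 5.10 under LFD. They did not overlap either, at 5.93 ± 0.13 under HFD and 5.34 ± 0.21 under LFD (SD, n = 4 each). The difference between the diets was 0.48 for S phase and 0.59 for mitosis at 12 weeks. At 8 weeks it was 0.18 for S phase and 0.41 for mitosis, and at 4 weeks 0.20 and 0.29.

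The 2 classes lay farthest apart in their diet differences at 8 weeks, when S-phase genes stood at 6.80 ± 0.17 under HFD and 6.62 ± 0.14 under LFD, and mitotic genes at 5.84 ± 0.22 under HFD and 5.42 ± 0.10 under LFD (SD, n = 4 each). Both classes overlapped at that time. In the mitotic class HFD array 2 read 5.54 and LFD array 4 read 5.56, and in the S-phase class LFD array 4 read 6.82, close to the 6.83 of HFD array 4. All 4 genes called at 8 weeks were mitotic, as are 30 of the 42 measured genes, and 1.17% of all genes were called higher. At an unadjusted p under 0.05, 18 of 30 mitotic and 1 of 12 S-phase genes were higher, where 6.19% of all genes were. The median difference at 8 weeks was 0.40 over the mitotic and 0.20 over the S-phase genes. A difference between the classes was not tested, since their members are not replicates.

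**Figure D3:**
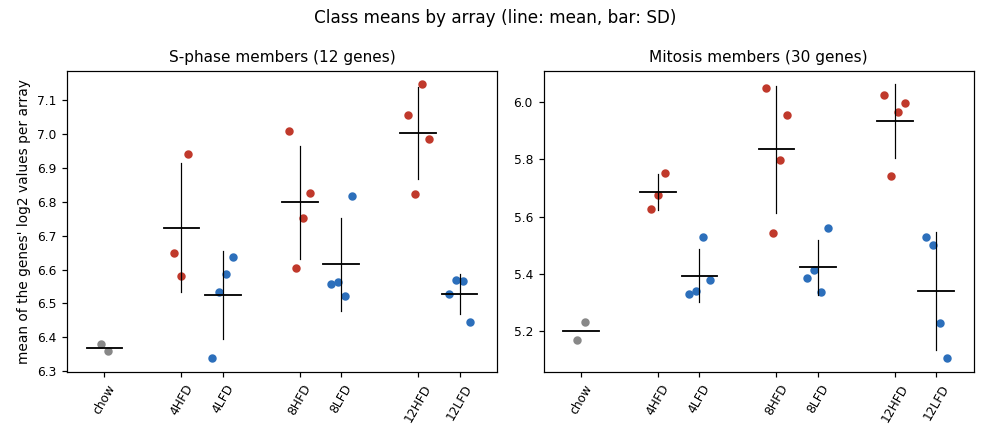
Mean log2 signal of the 12 S-phase genes (left) and the 30 mitotic genes (right) in each array, with a line at the group mean and a bar of ± 1 SD for groups of more than 2 arrays. The diets do not overlap at 12 weeks in either class, and mitotic genes do not overlap at 4 weeks either.

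At 8 weeks, Kif11, Tpx2, Kif23 and Ccna2 rose under HFD. All 4 were also among the 19 genes called at 12 weeks. Every HFD array lay above every LFD array in 12 of the 42 genes, as in 5.01% of all genes, and the reverse order was found for 0 (6.42% of all genes). Kif11 read 6.41, 5.82, 6.1 and 6.41 in the HFD arrays at 8 weeks and 5.69, 5.52, 5.38 and 5.65 in the LFD arrays. Its groups did not overlap, with HFD array 2 nearest to the LFD range, and the difference was 0.62 ± 0.14 (adjusted p = 0.0209). Ccna2 read 6.72, 5.96, 6.25 and 6.41 under HFD and 5.79, 5.53, 5.35 and 5.66 under LFD (0.75 ± 0.20, adjusted p = 0.0482), again without overlap and with HFD array 2 lowest. Tpx2 differed by 0.71 ± 0.18 (adjusted p = 0.0416) with overlapping groups, and Kif23 by 0.53 ± 0.13 (adjusted p = 0.0361) without overlap. Mki67 read 8.26, 7.59, 8.18 and 8.18 under HFD and 7.23, 7.21, 7.16 and 7.49 under LFD, which separated the groups but left the adjusted p at 0.065 (0.78 ± 0.22).

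None of the 8-week calls was kept whichever array was left out. The number called among the 42 genes was 0 without HFD array 1 or 4 or LFD array 2 or 3, 1 without HFD array 3 or LFD array 1, 2 without LFD array 4 and 8 without HFD array 2. Over all genes these fits called 164 to 438, in place of 533. Kif11 stood at 0.55 without HFD array 1 (adjusted p = 0.1) and at 0.55 without HFD array 4 (adjusted p = 0.0686). Among the arrays with high hepatocyte transcripts, 3 HFD and 2 LFD arrays at 8 weeks, 40 of 42 genes remained above 0, with a median of 0.29 and 0 calls. Over all genes 211 were called there. Among the 3 HFD and 3 LFD arrays of this kind at 12 weeks, 42 of 42 were above 0 with a median of 0.51, and 14 were called, 12 of them among the 19. Over all genes 1800 were called among these arrays at 12 weeks, against 989 in the fit of all arrays. The 7 of the 19 calls not made among these arrays were Pcna, Ccna2, Plk1, Nuf2, Hmmr, Top2a and Ect2. In the fit of all arrays with covariates for hepatocyte and epididymis transcripts, 15 of the 19 were called, all but Mcm4, Pcna, Plk1 and Hmmr. This fit called 1060 of all genes at 12 weeks. The number called at 12 weeks was 10 when HFD array 1 was left out, 12 for HFD array 3, 10 for HFD array 4 and 8 for LFD array 4. Over all genes these fits called 638, 598, 748 and 735. The 12-week calls among the 42 genes that were kept whichever array was left out were Mcm5, Mcm6, Kif11, Mki67, Racgap1, Cenpe, Tpx2 and Aurka.

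At 4 weeks, limma called none of the 42 genes, and 10 had an unadjusted p under 0.05. In 11 genes every HFD array lay above every LFD array, as in 4.68% of all genes, and the reverse order was found for 0 (4.41% of all genes). The smallest p belonged to Kif20a, a motor of the central spindle, which is named after its values were seen. It read 5.94, 5.96 and 6.11 in the HFD arrays and 5.09, 5.55, 5.51 and 5.23 in the LFD arrays, with no overlap (0.66 ± 0.16, adjusted p = 0.112). Both G1/S regulators were among the genes with an unadjusted p under 0.05 at 4 weeks, as they were at 12 weeks. Ccne1 read 5.9, 5.98 and 6.31 under HFD and 5.25, 5.45, 5.81 and 5.84 under LFD (0.48 ± 0.15, adjusted p = 0.251). E2f1 read 6.67, 7.05 and 7.11 under HFD and 6.2, 6.59, 6.53 and 6.65 under LFD (0.45 ± 0.14, adjusted p = 0.261). In both genes the lowest HFD array was just above the highest LFD array. HFD array 1 and LFD array 1 held epididymis transcripts at this time, and LFD array 1 was the lowest LFD array for Kif20a, Ccne1 and E2f1. Without these 2 arrays and chow array 1, Kif20a differed by 0.60 (adjusted p = 0.236), Ccne1 by 0.45 (adjusted p = 0.33) and E2f1 by 0.49 (adjusted p = 0.154), and 38 of the 42 genes were above 0 with a median of 0.26.

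Whether the effect of diet changed with time was tested as the interaction of diet and time. It was called for 0 of the 42 genes and 0 of all genes by limma (0% of all genes), and 4 of the 42 had an unadjusted p under 0.05, as had 5.41% of all genes. These were Cenpe, Pcna, Mcm5 and Mcm6. The larger number of calls at 12 weeks is therefore not a tested change over time. In comparisons of times within a diet, mice with more time on diet were also older, so time and age cannot be told apart. All 11 arrays with high hepatocyte transcripts belonged to 8 and 12 weeks. Within HFD, 12 weeks against 4 weeks gave 0 calls among the 42 genes, where 0.388% of all genes were called higher and 0.185% lower. Here 39 of the 42 were above 0 and 13 had an unadjusted p under 0.05 (11.2% of all genes), and the median difference was 0.28. Within LFD the same comparison gave 0 calls, where 0.298% of all genes were called higher and 0.383% lower. The difference was at or above 0 for 17 genes, counting Bub1, whose 2 means were equal. An unadjusted p under 0.05 was found for 2 genes (15% of all genes), and the median was -0.04. At 8 weeks against 4 weeks limma called 0 of the 42 within HFD (0% of all genes higher, 1 of the 42 and 8.85% of all genes at an unadjusted p under 0.05) and 0 within LFD (0.469% of all genes higher and 0.167% lower, 2 of the 42 and 15.5% of all genes at an unadjusted p under 0.05).

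Against chow, the difference of the HFD mean lay above 0 for all 42 genes and that of the LFD mean for 36 of them, with medians of 0.57 and 0.19. The chow mice were 12 weeks old and all other mice older, so diet and age cannot be told apart in these comparisons. The mean over the 3 HFD times was called higher than chow for 23 of the 42 genes, 6 of S phase and 17 of mitosis, and 0 lower, where 9.41% of all genes were called higher and 6.28% lower. The mean over the 3 LFD times was called higher for 2, Ccne1 (0.48) and Racgap1 (0.47), where 5.8% of all genes were called higher and 4.82% lower. Both comparisons share the same 2 chow arrays. Mki67 read 6.63 and 6.95 under chow, below all HFD arrays and within the range of the LFD arrays, and the HFD mean differed from chow by 1.17 ± 0.24 (adjusted p = 0.00228). The LFD mean of Mki67 differed from chow by 0.35 (adjusted p = 0.388). Kif23 read 4.67 and 4.82 under chow, below every HFD and LFD array, and the HFD mean differed by 0.92 ± 0.15 (adjusted p = 0.000235). The count for HFD was 5 without chow array 1, which held epididymis transcripts, and the count for LFD was then 0. Left out together with HFD 4-week array 1 and LFD 4-week array 1, the counts were 8 and 0. With arrays weighted by their quality, both counts were 0. Calls over all genes fell in these settings as well. For HFD, 3482 became 811 without chow array 1, 1176 without the 3 arrays and 75 with array weights. For LFD, 2356 became 155, 365 and 10.

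Genes of the same machinery outside the 42 had smaller median differences. The 42 genes and these further lists were all chosen with earlier results of these data known. Of 47 further S-phase genes, 3 rose at 12 weeks, with a median difference of 0.24. Of 66 further mitotic genes 11 rose, with a median of 0.29. None of either list fell, where 3.13% of all genes were called higher and 1.33% lower. Dbf4, the activator of the kinase that fires replication origins, read 5.63, 5.16, 5.71 and 5.42 under HFD and 4.6, 4.79, 4.8 and 4.87 under LFD (0.71 ± 0.15, adjusted p = 0.00747), without overlap. Prim2, a primase subunit (0.53 ± 0.13), and Atad2, a chromatin ATPase (0.54 ± 0.14), were the other S-phase calls. Hells, a chromatin remodeller (0.64 ± 0.23, adjusted p = 0.124), and Gins3, a helicase cofactor (0.46 ± 0.16, adjusted p = 0.128), were not called. Stil, needed for centriole duplication, read 5.21, 4.83, 5.05 and 5.03 under HFD and 4.09, 4.33, 4.09 and 4.08 under LFD at 12 weeks. Its groups were far apart (0.88 ± 0.14, adjusted p = 0.00112), whereas at 4 weeks its difference was -0.16 ± 0.16. Kif14, a motor of cytokinesis, differed by 0.68 ± 0.13, Knl1, the kinetochore scaffold of the checkpoint, by 0.68 ± 0.13, and the condensin ATPases Smc4 and Smc2 by 0.54 ± 0.10 and 0.69 ± 0.15, all called.

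Of 30 measured regulators of the cycle, 2 rose and 0 fell at 12 weeks, where 3.13% of all genes were called higher and 1.33% lower. At 8 weeks 2 rose and 2 fell (1.17% and 1.24% of all genes). The difference lay above 0 for 19 of the 30 at 12 weeks and for 14 at 8 weeks (48% and 48.1% of all genes). The list mean at 12 weeks was 7.60 to 7.66 under HFD and 7.38 to 7.43 under LFD, while the diets overlapped at 8 weeks. Cdkn1a, the inhibitor p21 that halts the cycle, read 10.47, 10.24, 10.14 and 10.11 in the HFD arrays at 12 weeks and 7.79, 8.07, 7.81 and 7.84 in the LFD arrays. The groups were more than 2 log2 units apart, with a difference of 2.36 ± 0.28 (adjusted p = 0.000222). Cdkn1a was called at all 3 times, which was the case for none of the 42 genes. E2f8, an atypical E2F that represses S-phase genes and is itself raised in the late cycle, read 5.74, 5.21, 5.62 and 5.48 under HFD and 5.06, 4.57, 4.55 and 4.37 under LFD, without overlap (0.88 ± 0.15, adjusted p = 0.0018). Cdkn2c, the inhibitor p18 of the cyclin D kinases, read 8.26, 8.76, 8.66 and 8.98 under HFD at 8 weeks and 9.46, 9.63, 9.24 and 9.6 under LFD. It fell at 8 weeks (-0.82 ± 0.20, adjusted p = 0.031) and differed by -0.46 ± 0.20 at 12 weeks (adjusted p = 0.241). The cyclin D kinase gene Cdk6 (0.60 ± 0.22, adjusted p = 0.138), Skp2, which directs inhibitors to degradation (0.46 ± 0.18, adjusted p = 0.185), and Ccnd1, encoding cyclin D1 (0.46 ± 0.21, adjusted p = 0.282), were not called at 12 weeks. Foxm1 and Mybl2 encode transcription factors of mitotic genes, and neither was called (0.52 ± 0.16, adjusted p = 0.0721, and 0.08 ± 0.12, adjusted p = 0.845).

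The mean of macrophage markers was higher under HFD at each time, without overlap at 8 and 12 weeks. Of 16 macrophage genes, 12 rose at 12 weeks and 6 at 8 weeks, where 3.13% and 1.17% of all genes were called higher. None fell at these times (1.33% and 1.24% of all genes), and 0 were called at 4 weeks. The mean of this list was between 8.74 and 9.24 in the HFD arrays at 12 weeks and between 7.91 and 8.30 in the LFD arrays, a difference of 0.88. At 8 weeks it lay between 8.63 and 9.26 under HFD and between 8.14 and 8.31 under LFD. At 4 weeks the ranges overlapped, at 8.27 to 8.57 under HFD and 8.14 to 8.46 under LFD. Cd68, a lysosomal protein of macrophages, read 11.7, 10.77, 11.53 and 10.89 under HFD at 12 weeks and 8.91, 9.53, 9.58 and 9.76 under LFD, with no overlap (1.78 ± 0.30, adjusted p = 0.00145). Its difference was the largest of the 16 at 12 weeks, while 2 of the 16 lay below 0 (lowest -0.25), as did 2 at 8 weeks. With the 3 times averaged, limma called 12 of the 16 higher and 1 lower (6.03% and 4.44% of all genes). At 12 weeks the mean of 14 markers of lipid-associated macrophages lay between 9.75 and 10.71 under HFD and between 8.46 and 9.07 under LFD. Of these markers 9 rose at 12 weeks (3.13% of all genes), and 2 of the 14 lay below 0. At 4 weeks 0 of the 14 were called, but all 14 lay above 0 (49.7% of all genes). Their means then overlapped, at 8.94 to 9.33 under HFD and 8.31 to 8.95 under LFD. Among the 4 HFD arrays at 12 weeks, array 2 had the lowest mean of macrophage, S-phase and mitotic genes, array 1 the highest of macrophage and mitotic genes and array 3 the highest of S-phase genes. Among the 4 LFD arrays the order differed: array 1 had the lowest macrophage mean (7.91) and the highest mitotic mean (5.53), and array 3 the highest macrophage mean (8.30) with a mitotic mean of 5.23.

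Of 11 fibroblast and progenitor genes, 4 rose at 12 weeks, where 3.13% of all genes were called higher. The mean of the 11 lay between 9.74 and 9.91 under HFD and between 9.17 and 9.54 under LFD. At 4 weeks 1 of them rose (0.189% of all genes). The means did not overlap at that time either, at 9.82 to 9.93 under HFD and 9.33 to 9.73 under LFD. The list contains matrix genes such as Postn (1.38 ± 0.20), while Pdgfra, the receptor that marks progenitors, differed by 0.32 ± 0.16 (adjusted p = 0.351). Lymphocyte markers overlapped between the diets at 12 weeks, with means of 5.91 to 6.51 under HFD and 5.40 to 5.93 under LFD. Of these 11 genes 1 rose (3.13% of all genes). All 11 lay above 0 (48% of all genes) and 5 were higher at an unadjusted p under 0.05 (9.09% of all genes). At 8 weeks the list means did not overlap (5.95 to 6.13 under HFD and 5.59 to 5.94 under LFD). Endothelial markers overlapped as well, at 8.82 to 9.16 under HFD and 8.72 to 8.95 under LFD, and 0 of 10 were called by limma or had an unadjusted p under 0.05. The hepatocyte genes at 12 weeks had a mean of 8.35 ± 1.97 under HFD and 9.73 ± 1.50 under LFD (SD, n = 4 each), and overlapped widely. The part of these cell types in the differences of the 42 genes was not tested.

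**Figure D4:**
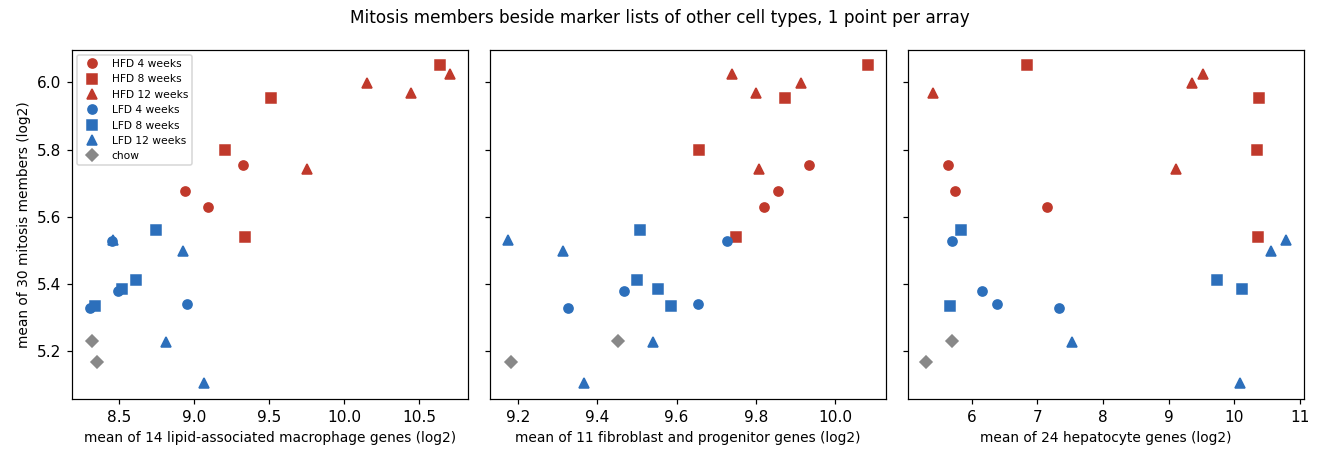
Mean log2 signal of the 30 mitotic genes in each array (vertical) against the mean of 14 lipid-associated macrophage, 11 fibroblast and progenitor and 24 hepatocyte genes (horizontal). HFD arrays at 8 and 12 weeks lie to the right of the LFD arrays of the same time for the macrophage and the fibroblast lists, and not for the hepatocyte list. For the fibroblast list the HFD arrays do so at 4 weeks as well.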

How the data were processed

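Gonadal white adipose tissue of 25 mice was measured on Affymetrix Mouse Gene 2.0 ST arrays. The deposited values are on the log2 scale and were made by the authors with Transcriptome Analysis Console 4.0.2, per the series' design text. Their normalization between arrays is not given in the sources used here, and no further normalization was applied. The values lie between 1.73 and 14.13, and the precision of each comparison is limited by the number of arrays.

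The table holds 34472 transcript clusters. In the platform annotation 23521 have 1 gene symbol, 1814 have several and 9137 have none. Genes with several clusters (1082 of 22180) were represented by the cluster with the highest mean over all arrays. Of the 42 measured genes, 1 had more than 1 cluster, and 7 had a mean under the median cluster level of 5.14. These 7 were all mitotic: Bub1, Ttk, Melk, Birc5, Kif2c, Kif4 and Hmmr. Group means of 7 groups were fitted with limma 3.58.1 in R 4.3.3, which left 18 residual degrees of freedom, and p-values were adjusted by Benjamini-Hochberg over all 22180 genes. The labels call the samples biological replicates. The fit was tested on simulated data.

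The genes and lists were chosen with earlier results of these data known. Values in every array are given for Mki67 and Kif11, the 8 mitotic and 4 S-phase genes with the smallest p at 12 weeks, and the 2 genes of each class with the p nearest 1. From each further cell cycle list up to 5 genes with the smallest p are named, and always Cdkn1a, Ccnd1, Foxm1 and Mybl2. Other genes named were chosen after their values were seen. Alternatives covered normalization, filtering, moderation, array weights, covariates for hepatocyte and epididymis transcripts, subsets of arrays and the replicate number as a block. Replicate numbers were not taken as pairs. Of 11 pairs of samples with the same number, 5 had a correlation of deviations over 0.1. At 8 weeks HFD array 1, low in hepatocyte transcripts, correlated at -0.61 and -0.48 with LFD arrays 1 and 2, which were high. With LFD arrays 3 and 4, which were low, it correlated at 0.58 and 0.50. Since the correlations followed hepatocyte transcripts there, they cannot decide whether the numbers mark pairs.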

Additional observations from a re-analysis of the deposited data

Results flagged for a closer look

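In groups of 4 arrays, 1 array stood apart from the other 3 in 6 of 90 sets of values examined (Dixon's test at the 95% level), and chance flags about 1 in 20 such sets. In the HFD group at 8 weeks, array 2 had the lowest Mki67 (7.59, nearest other array 8.18) and the lowest Mcm7 (6.47, nearest 6.63), and array 1 had the highest Pcna (9.15, nearest 8.6). In the LFD group at 8 weeks, array 1 had the lowest Aurka (5.16, nearest 5.73) and array 4 the highest mean of the S-phase genes (6.82, nearest 6.56). In the LFD group at 4 weeks, array 3 had the highest Top2a (6.05, nearest 5.76).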

How the results depend on the processing

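At 12 weeks the count of 19 called genes was between 14 and 27 under the alternatives other than leaving out single arrays, and the difference was above 0 for all 42 genes whichever array was left out. Leaving out single arrays gave 8 to 19 calls at 12 weeks, 0 to 8 at 8 weeks, 0 at 4 weeks, 26 to 34 for the average over times, 5 to 25 for HFD against chow, 0 to 5 for LFD against chow and 0 for the interaction and the comparisons of times within a diet. At 4 weeks the count of 0 became 2 with hepatocyte and epididymis covariates and 3 at an unadjusted p under 0.05 with a fold of at least 1.5. At 8 weeks the count of 4 became 1 after quantile normalization, 0 after centring, 7 with dim genes left out, 10 with array weights, 8 without the 3 arrays that held epididymis transcripts, 8 with covariates, 0 in the arrays with high hepatocyte transcripts and 2 with the compared groups alone. For HFD against chow, 23 became 0 with array weights, 8 without the 3 arrays and 13 with covariates, while 3482 calls over all genes became 75, 1176 and 1345. For LFD against chow, 2 became 1 after centring, 5 with dim genes left out, 0 with array weights, 0 with the replicate block, 0 without the 3 arrays, 0 with covariates and 1 with the compared groups alone. Under the unadjusted p with a fold of at least 1.5, LFD against chow gave 0, the average over times 5 in place of 29, and 8 against 4 weeks within LFD and the interaction 1 each. The cause of these shifts was not tested.

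With the replicate number as a block the counts were 19 at 12 weeks, 4 at 8 weeks and 30 for the average. At 12 weeks 17 of the 19 calls were shared, with Mcm4 and Plk1 lost and Mcm3 and Melk gained, and at 8 weeks 3 of 4, with Ccna2 lost and Cenpe gained. Of 11 pairs of arrays with the same number the correlation of deviations was -0.61 to 0.60, and 3 correlated best with their own number. Differences that changed sign were not called. At 4 weeks Pcna lay between -0.115 and 0.01 when single arrays were left out (0.01 without HFD array 2). Mcm4 lay between -0.015 and 0.27 (-0.015 without HFD array 3, -0.01 without LFD array 1), and was -0.0048 with array weights and -0.018 without the 3 arrays. Bub1b lay between -0.017 (without LFD array 2) and 0.05, and was -0.0057 with the replicate block. At 8 weeks Mcm4 lay between -0.024 (without LFD array 3) and 0.12, and was -0.02 in arrays with high hepatocyte transcripts. Over all genes, 989 calls at 12 weeks became 1787 with array weights, 1865 without the 3 arrays and 1800 in arrays with high hepatocyte transcripts. The 533 calls at 8 weeks became 1267, 1251 and 211 under the same settings, 1001 with covariates and 313 after centring. The 47 calls at 4 weeks became 163 with array weights, 225 with covariates, 76 with dim genes left out and 0 with the compared groups alone. Centring moved the median of all genes by 0.105 for 8 against 4 weeks within LFD.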
